A study of Mus musculus with 6 samples.

Results

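SIN3 sites without REST are places in the genome of mouse embryonic stem cells where SIN3A and SIN3B both had a peak and the repressor REST had none. They were chosen by peak position: rows of the SIN3A list with a SIN3B midpoint less than 400 bp away on the same chromosome and no REST midpoint that close. Midpoints on chromosome X between 165.3 and 165.4 Mb were left out. The rule found 483 sites among the 1292 SIN3A peaks outside that stretch (37.4%, exact 95% interval 34.7 to 40.1%), from 14023 peaks in the 6 lists of the series. They are set against the 221 SIN3A peaks that had both SIN3B and REST, called SIN3 sites at REST, and against the 568 SIN3A peaks with neither, called SIN3A-only sites. The remaining 20 SIN3A peaks had REST without SIN3B.

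The study mapped SIN3A, SIN3B, REST and the CoREST proteins RCOR1, RCOR2 and RCOR3 by ChIP-seq, which sequences the DNA precipitated with a protein. The cells were E14 mouse embryonic stem cells, an established line, at passages 15 to 18. SIN3A and REST were precipitated from E14 cells with antibodies against the proteins themselves. SIN3B and the RCOR proteins were precipitated with a V5 antibody from stable E14 lines that expressed a low level of a tagged transgene, and the transgene label of the SIN3B line spells the tag VG. Each protein had 1 library and 1 peak list, so no value has a replicate error, and all intervals and tests cover counting error between classes of sites in these libraries only. The lists hold no read depth. A site without a listed peak may still hold signal below the authors' threshold.

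SIN3A and SIN3B are paralogous scaffold proteins that carry class I histone deacetylases. They do not bind DNA by sequence themselves and are brought to chromatin by transcription factors and by subunits that read histone marks. REST, a zinc finger repressor of neuronal genes, recruits SIN3 through its amino terminus and the CoREST proteins RCOR1, RCOR2 and RCOR3 through its carboxy terminus. SIN3 also has many partners other than REST.

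Among the 1051 SIN3A peaks without REST, 46.0% (42.9 to 49.0%) had SIN3B, against 91.7% (87.5 to 94.9%) of the 241 SIN3A peaks at REST. These shares follow from the rule and are given as a description. The 483 sites used 478 distinct SIN3B peaks, or 9.03% of the 5294 SIN3B peaks outside the stretch of chromosome X. A second SIN3B midpoint lay inside the window at 26 sites, and 10 sites shared their SIN3B peak with another site. The limit cut through a run of distances for SIN3B but not for REST. The pairs just inside it lay at chr2:38887111-38887251 and chr4:41653891-41653931, with SIN3B midpoints 390 and 380 bp away. Just outside lay the SIN3A peaks chr19:44461651-44461711 and chr11:98254711-98254771, at 400 and 410 bp, and 28 SIN3A-only sites in all had a SIN3B midpoint within 600 bp. For REST, the nearest peak to any SIN3 site without REST was 1080 bp away, at chr12:112125951-112125991, followed by 1580 bp at chr8:108178611-108178651. The farthest REST midpoint at a SIN3 site at REST was 260 bp away, at chr7:30143251-30143331, and the next 190 bp, at chr10:80440351-80440611. No site of either class had its nearest REST midpoint between those distances.

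Most SIN3 sites without REST lay far from REST. The median distance to the nearest REST midpoint was 144060 bp (exact 95% interval of the median 124580 to 163700 bp), against 134930 bp (116700 to 158940 bp) for SIN3A-only sites. A REST midpoint lay within 5000 bp of 9 of the 483 sites (1.86%, 0.855 to 3.51%), against 24 of the 568 SIN3A-only sites (4.23%, 2.73 to 6.22%). Within 100 kb the shares were 40.2% and 40.7%.

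The authors' score in each list was turned into a percentile, where 100 marks the highest score of that list and tied peaks share a value. SIN3A scores at SIN3 sites without REST were between 8.38 and 28.41 with a median of 10.93, against 8.01 to 151.54 with a median of 13.11 at SIN3 sites at REST. In SIN3A percentiles the median was 43.6 (43.6 to 59.6) without REST and 77.5 (69.98 to 82.6) at REST. SIN3A-only sites also had a median SIN3A percentile of 43.6, but their upper quartile was 59.6, against 77.5 at SIN3 sites without REST. SIN3A scores were coarse: 24 distinct values covered the 483 sites, and 141 sites shared the score 10.2. Few sites without REST stood near the top of the SIN3A list: 32 of them (6.63%, 4.58 to 9.22%) ranked above its percentile 90, against 71 of 221 at REST (32.1%, 26.0 to 38.7%).

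SIN3B was also lower without REST than at REST. The sites make up 37.4% of the SIN3A peaks but use 9.03% of the SIN3B peaks. The SIN3A and SIN3B percentiles of the whole class are therefore not set against each other. The median SIN3B score was 15.75 without REST, within a range of 9.12 to 117.71, against 27.36 and a range of 9.95 to 253.67 at REST. The median SIN3B percentile was 66.7 (62.2 to 73.2) without REST and 89.7 (87.05 to 91.6) at REST. SIN3B stood above its percentile 90 at 125 of 483 sites without REST (25.9%, 22.0 to 30.0%), against 109 of 221 at REST (49.3%, 42.6 to 56.1%). Both proteins stood above percentile 90 at 14 sites without REST (2.90%, 1.59 to 4.82%) and at 57 sites at REST (25.8%, 20.2 to 32.1%). SIN3B above percentile 75 beside SIN3A below 50 was found at 87 sites without REST (18.0%) and 38 at REST (17.2%). SIN3A above 75 beside SIN3B below 50 was found at 33 sites without REST (6.83%) and 5 at REST (2.26%). These patterns are not compared with each other. Of all 483 sites without REST, 44.1% had SIN3B above its percentile 75 and 28.2% had SIN3A above its own. How the SIN3A list divided changed along its length. Among the 244 SIN3A peaks above percentile 80, 97 (39.8%) were SIN3 sites without REST, 99 (40.6%) were at REST and 44 (18.0%) were SIN3A-only. Among the 431 up to percentile 20 these counts were 148 (34.3%), 39 (9.05%) and 240 (55.7%). The share of SIN3 sites without REST among all SIN3A peaks was thus much the same at both ends. Among SIN3A peaks without REST alone it was not: sites with SIN3B outnumbered SIN3A-only sites above percentile 80 (97 against 44). Up to percentile 20 they were fewer (148 against 240). Since the lists that gave these scores also chose the sites, the ranks are a description and were not tested.

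The scores of the paired peaks followed each other loosely without REST. Spearman's rho between SIN3A and SIN3B percentiles was 0.20 over the 483 sites without REST and 0.55 over the 221 at REST. These correlations run across sites of the same 2 libraries, which are not independent replicates, and many SIN3A scores are tied. With sites at REST limited to SIN3A scores of up to 28.41, the highest found without REST, rho over the remaining 202 was 0.44. Among sites at REST, rho was 0.58 over the 192 with an RCOR3 peak and 0.14 over the 29 without one. Among sites without REST the order was the other way round, with 0.06 over the 37 with an RCOR3 peak and 0.20 over the 446 without one. Where both peaks were at most 60 bp wide, rho was 0.26 over 175 pairs without REST and 0.60 over 133 pairs at REST. At REST, the REST percentile followed SIN3B with a rho of 0.70 and SIN3A with a rho of 0.50. The median SIN3B percentile without REST was 62.2 (56.5 to 70.4) at the 148 sites with a SIN3A percentile of up to 25 and 83.0 (56.5 to 96.8) at the 32 above 90. At REST the medians of these bands were 77.9 (66.8 to 84.4) and 96.6 (94.7 to 97.8). In the bands from 25 to 50, 50 to 75 and 75 to 90 the medians were 56.5, 73.2 and 81.3 without REST. At REST they were 80.9, 89.0 and 87.8. The median was thus higher in the highest band than in the lowest in both classes. Without REST, though, the interval of the highest band covered that of the lowest, so their order is not settled there. The highest band holds 32 sites without REST and 71 at REST, so the widths of its intervals do not compare the classes.

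**Figure D1:**
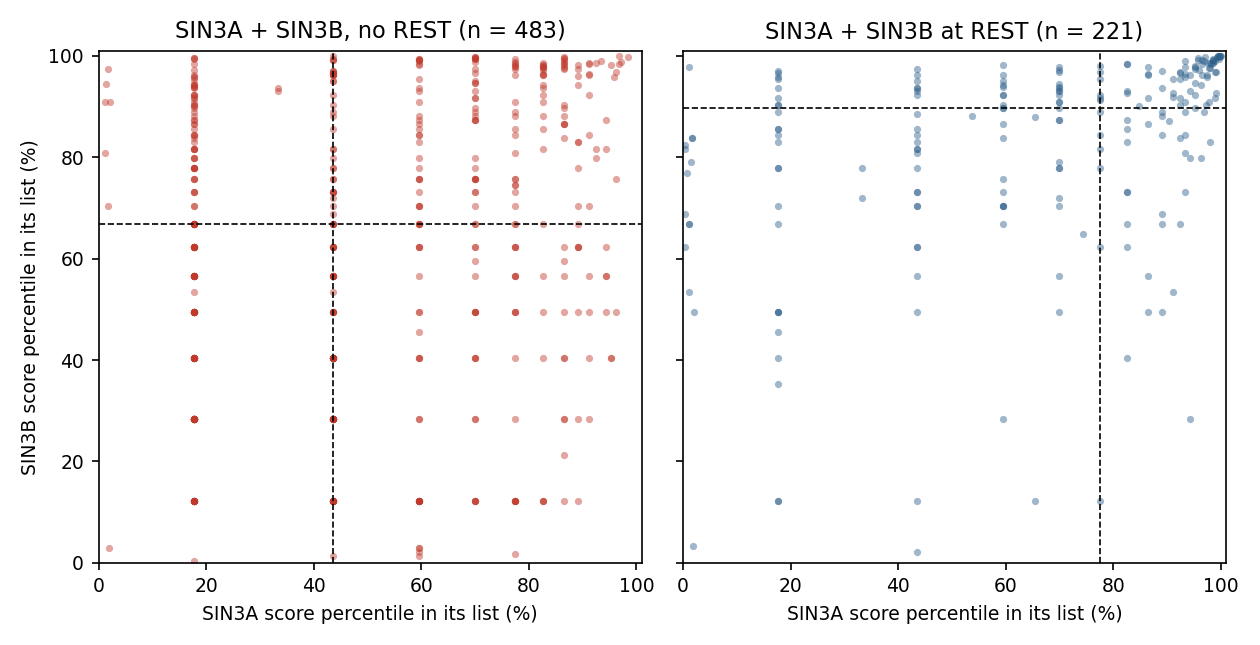
SIN3A score percentile (x axis, percent of the list) against SIN3B score percentile (y axis) for the 483 SIN3 sites without REST (left) and the 221 at REST (right). Each point is a site and dashed lines mark the medians; the vertical stripes are tied SIN3A scores, and the upper right corner holds 57 sites at REST but 14 without REST above percentile 90 on both axes.

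The sites with the highest mean percentile show what high-scoring SIN3 sites without REST looked like. The first was chr3:129823491-129823531, with a SIN3A score of 28.41 (rank 22 of 1314) and a SIN3B score of 94.5 (rank 17 of 5318), and its nearest REST midpoint was 3316250 bp away. The SIN3B peak with the best rank was that of chr8:87950191-87950591, with a score of 117.71 (rank 6) beside a SIN3A score of 22.59 (rank 41). There the SIN3A peak was 400 bp wide, the SIN3B peak 40 bp, and their midpoints lay 220 bp apart. The next in order were chr2:29711551-29711591, with a SIN3A score of 23.31 and a SIN3B score of 66.32, and chr7:127213091-127213311, with 22.59 and 60.52. At chr9:21162151-21162331, with a SIN3A score of 18.94 and a SIN3B score of 55.54, a REST peak of rank 245 lay 3650 bp away, outside the window. The other members of the highest 10 were chr8:82607771-82607991, chr8:98324171-98324231, chr5:142716571-142716611, chr6:116173631-116173691 and chr9:119786231-119786371. Their SIN3A scores were between 16.03 and 20.4 and their SIN3B scores between 39.79 and 67.15. None of the 10 had a peak of RCOR1, RCOR2 or RCOR3. For comparison, the highest sites at REST were chr7:6014211-6014251, chr19:4989171-4989211 and chr8:14072691-14072731, with SIN3A scores of 151.54, 92.53 and 78.68 and SIN3B scores of 253.67, 138.44 and 134.29. These 3 held ranks 1 to 3 in both lists, carried RCOR1, RCOR2 and RCOR3 as well, and their SIN3A and SIN3B midpoints coincided.

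At the other end, chr8:108143891-108144291 had the lowest mean percentile, with a SIN3A score of 9.11 and a SIN3B score of 10.36. It was followed by chr11:72023311-72023371, with 10.2 and 9.12, and then by 12 tied sites, of which chr11:4118091-4118131 had 10.2 and 10.78. By difference of percentile, which serves only to name sites, the proteins parted most at chr8:86956931-86956971. There SIN3A stood at percentile 1.67 (rank 1291) and SIN3B at percentile 97.3 (rank 141). SIN3B was likewise far ahead at chr2:28522111-28522151 (SIN3A rank 1295, SIN3B rank 292) and chr7:140982531-140982571 (1297 and 463). SIN3A was far ahead at chr9:108206111-108206311 (SIN3A rank 129, SIN3B rank 4204), chr8:108385991-108386211 (258 and 5231) and chr11:72954451-72954631 (158 and 4204). The last of these had an RCOR3 peak of rank 979 with its midpoint 20 bp away.

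SIN3A and SIN3B midpoints lay farther apart without REST than at REST. The median distance was 70 bp (60 to 80 bp) over the 483 pairs without REST and 20 bp (20 to 30 bp) over the 221 at REST, on a 20 bp grid of starts and ends. With intervals as deposited, presence of SIN3B and of REST both required overlap with the SIN3A peak. Sites whose REST peak did not overlap then counted as without REST, giving 311 sites without REST and 157 at REST. The medians over these overlapping pairs were 30 bp without REST and 20 bp at REST. The longer distance was not particular to sites without REST: the 29 sites at REST with no RCOR3 peak had a median of 60 bp (40 to 90 bp). A distance of at most 20 bp was found for 107 pairs without REST (22.2%, 18.5 to 26.1%), against 119 at REST (53.8%, 47.0 to 60.6%). A distance of over 200 bp was found for 50 pairs without REST (10.4%) and 3 at REST (1.36%). The SIN3B midpoint lay at the higher coordinate in 241 pairs without REST and at the lower in 218. The intervals as listed shared positions in 283 of 483 pairs without REST (58.6%, 54.1 to 63.0%), against 185 of 221 at REST (83.7%, 78.2 to 88.3%).

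Peak width moved with this distance. SIN3A peaks had a median width of 60 bp in both classes, but 266 without REST (55.1%, 50.5 to 59.6%) were at most 60 bp wide, against 158 at REST (71.5%, 65.0 to 77.3%). SIN3B peaks had medians of 60 bp without REST and 40 bp at REST, and 62 (12.8%, 9.98 to 16.2%) without REST were wider than 200 bp, against 16 (7.24%, 4.20 to 11.5%) at REST. Among pairs with both peaks at most 60 bp wide, the median distance was 60 bp (40 to 60 bp) without REST and 20 bp (10 to 20 bp) at REST. With SIN3B also above percentile 75 it was 40 bp (30 to 60 bp) over 83 pairs without REST and 15 bp (10 to 20 bp) over 106 at REST. SIN3A scores were not matched in these pairs. The SIN3B distance was also part of the rule that chose the sites, so the distances are a description and were not tested. Wide SIN3A peaks tended to score higher without REST, with a rho of 0.25 between width and score, against -0.10 at REST. For SIN3B, rho was -0.14 without REST and -0.28 at REST. The widths of the SIN3A and SIN3B peaks of a pair hardly followed each other, with a rho of 0.08 without REST and 0.11 at REST.

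**Figure D2:**
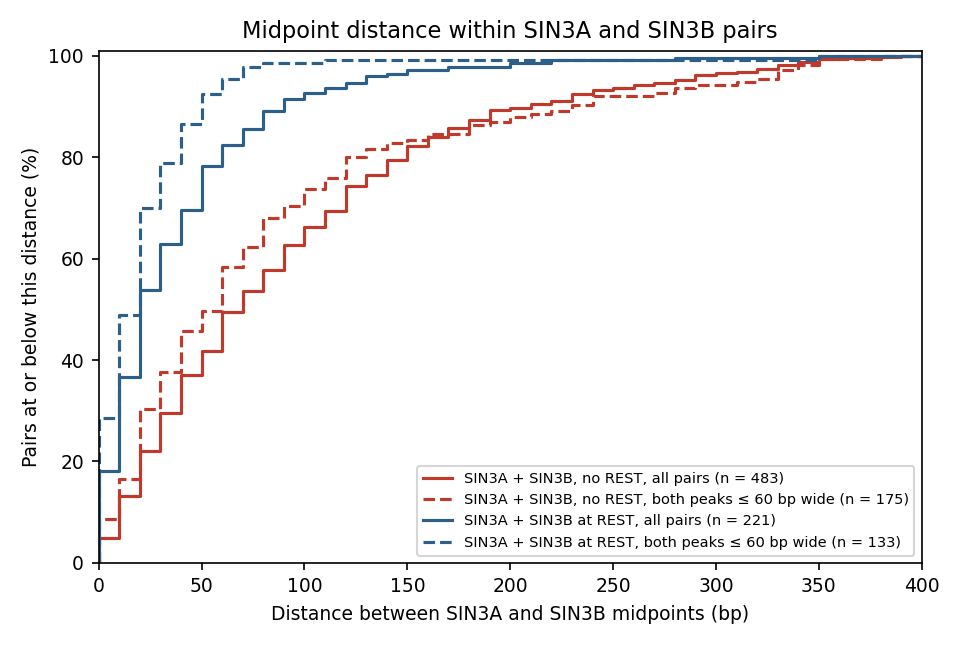
Cumulative share of SIN3A and SIN3B pairs (y axis, percent) by the distance between their midpoints (x axis, bp) for sites without REST (red) and at REST (blue), over all pairs (solid) and pairs with both peaks at most 60 bp wide (dashed). At 20 bp the solid lines stand at 22.2% without REST and 53.8% at REST, and the dashed red line stays below the dashed blue one.

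Few SIN3 sites without REST had a listed peak of a CoREST protein. The lists differ in length: outside the stretch of chromosome X, RCOR3 has 3729 peaks, RCOR2 437 and RCOR1 60. The RCOR1 list thus has too few peaks to cover most sites of either class. RCOR3 had a peak at 37 of 483 sites without REST (7.66%, 5.45 to 10.4%), against 192 of 221 sites at REST (86.9%, 81.7 to 91.0%). The difference was -79.2 percentage points (adjusted p = 7.5e-100, two-sided Fisher's exact test, Benjamini-Hochberg over the 3 RCOR proteins). RCOR2 was found at 2 sites without REST (0.414%, 0.0502 to 1.49%) and 42 at REST (19.0%, 14.1 to 24.8%), a difference of -18.6 percentage points (adjusted p = 2e-20, Fisher's exact test). RCOR1 was found at 0 sites without REST (0 to 0.761%) and 38 at REST (17.2%, 12.5 to 22.8%), a difference of -17.2 percentage points (adjusted p = 1.1e-20, Fisher's exact test). Over all 1292 SIN3A peaks outside the stretch, 20.7% had RCOR3, 3.87% RCOR2 and 2.94% RCOR1. The sites without REST stood below that background for each protein, but the background includes the sites at REST. Sites at REST made up 192 of the 267 SIN3A peaks with RCOR3, 42 of the 50 with RCOR2 and all 38 with RCOR1. The RCOR lists played no part in choosing the sites, but neighbouring sites are not independent, and the p-values treat them as if they were.

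Compared with SIN3A-only sites, no difference was detected. RCOR3 was found at 7.66% of SIN3 sites without REST and 5.28% (3.59 to 7.45%) of SIN3A-only sites (difference 2.38 percentage points, adjusted p = 0.39, Fisher's exact test). For RCOR2 the shares were 0.414% and 0.880% (0.286 to 2.04%, adjusted p = 0.69, Fisher's exact test), and RCOR1 was at 0 sites of either class (adjusted p = 1, Fisher's exact test). These comparisons were added after the data were seen. The RCOR3 difference passed the threshold with a window of 200 bp (4.26 points, adjusted p = 0.014, Fisher's exact test) and with intervals as deposited (6.75 points, adjusted p = 7.7e-05, Fisher's exact test). With intervals as deposited, the classes without REST also hold sites with a REST midpoint inside the window but no overlap. RCOR1 was then at 3 SIN3 sites counted as without REST, so that difference does not describe the same classes.

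**Figure D3:**
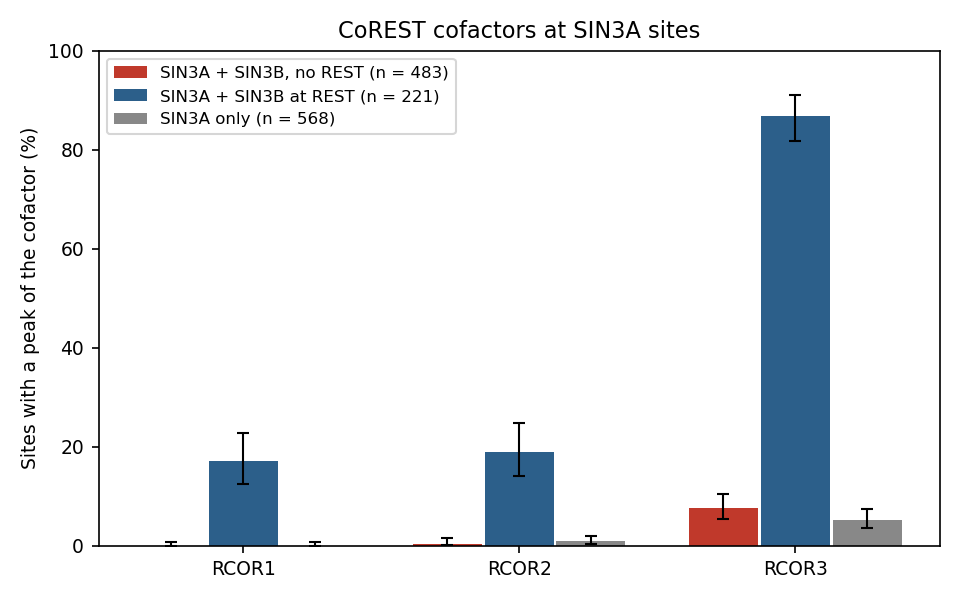
Share of sites (y axis, percent) with a peak of RCOR1, RCOR2 or RCOR3 (x axis) at SIN3 sites without REST (red), SIN3 sites at REST (blue) and SIN3A-only sites (grey), with exact 95% binomial intervals. RCOR3 reaches 86.9% at REST but 7.66% and 5.28% in the classes without REST.

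The RCOR3 gap was found at high as well as low SIN3B scores, and was widest at the highest. Without REST, RCOR3 was at 4 of 54 sites (7.41%) in the lowest SIN3B percentile band of up to 25, at 16 of 109 (14.7%) from 25 to 50, at 7 of 107 (6.54%) from 50 to 75, at 5 of 88 (5.68%) from 75 to 90 and at 5 of 125 (4.0%) above 90. At REST the same bands had 5 of 7 (71.4%), 5 of 14 (35.7%), 30 of 35 (85.7%), 49 of 56 (87.5%) and 103 of 109 (94.5%). The band of the highest SIN3B scores thus had the lowest share with RCOR3 of the 5 bands without REST, and the highest of the 5 at REST. Without REST its interval (1.31 to 9.09%) overlapped with those of all other bands, including 8.63 to 22.7% from 25 to 50. At REST it overlapped with all but that of the band from 25 to 50. The order of the bands was not tested. In the highest band the difference was -90.5 percentage points (adjusted p = 3.3e-51, Fisher's exact test over 5 bands). In the band from 25 to 50, with 14 sites at REST, it was -21.0 points and did not pass the threshold (adjusted p = 0.063, Fisher's exact test). The bands were added after the data were seen, and the lowest holds 7 sites at REST.

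**Figure D4:**
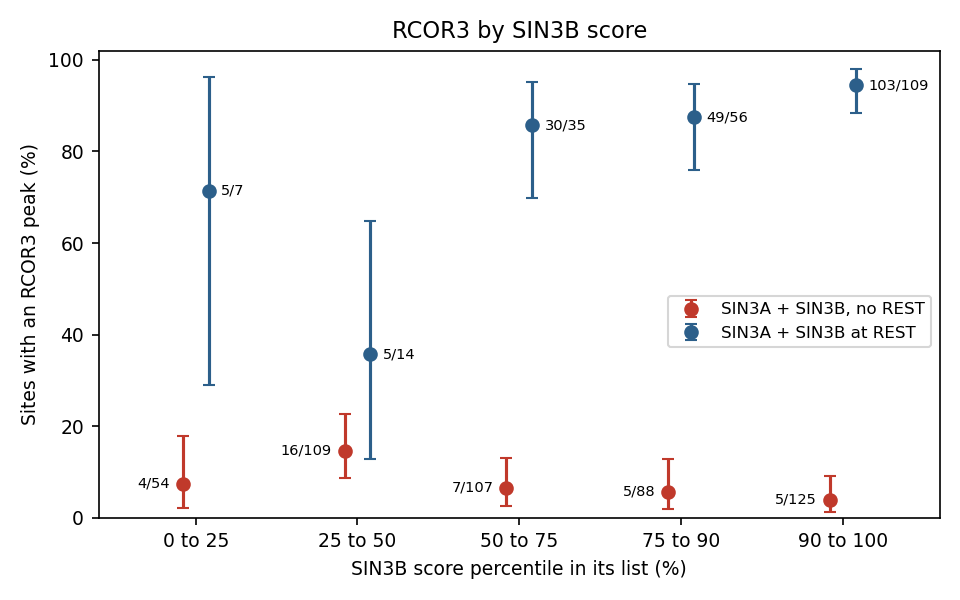
Share of sites with an RCOR3 peak (y axis, percent, exact 95% intervals, counts beside the points) by SIN3B score percentile band (x axis) for SIN3 sites without REST (red) and at REST (blue). In the band above 90 the shares are 4.0% without REST and 94.5% at REST.

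Where RCOR3 was present without REST, it was of middling rank. Its RCOR3 percentile at the 37 sites had a median of 49.3 within a range of 14.9 to 95.1, with 2 sites (5.41%) above percentile 90. At REST the median RCOR3 percentile over 192 sites was 92.5, and 106 (55.2%) stood above 90. The RCOR3 midpoint lay a median of 30 bp from that of SIN3A in both classes. Within SIN3 sites without REST, those with RCOR3 had a median SIN3B percentile of 49.5, against 70.4 for the 446 without it. At REST the order was the other way round, with 91.0 where RCOR3 was present and 66.7 at the 29 sites where it was not. The 37 sites were spread over 14 chromosomes.

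Only chr16:96250291-96250331 carried RCOR2 and RCOR3 together without REST. Its SIN3A score was 14.57 (rank 158), its SIN3B score 50.57 (rank 124), its RCOR3 rank 508 and its RCOR2 rank 230, and the nearest REST midpoint was 566720 bp away. The other site with RCOR2, chr3:89480931-89481031, had a SIN3A score of 12.39, a SIN3B score of 14.09 and an RCOR2 rank of 83. After the chromosome 16 site, the RCOR3-bearing sites with the highest mean percentile were chr8:73539251-73539471, with a SIN3A score of 16.03 and a SIN3B score of 30.67, and chr7:126600331-126600551, with 12.39 and 48.91. The site on chromosome 3 and these last 2 were picked after their values were seen.

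Chromosome 8 held more SIN3 sites without REST than any other chromosome. It had 86 of the 483 (17.8%, 14.5 to 21.5%), against 16 of 221 at REST (7.24%, 4.20 to 11.5%), an odds ratio of 2.78 (adjusted p = 0.0025, Fisher's exact test over 19 chromosomes). The call ended with intervals as deposited (9.08 points, adjusted p = 0.13, Fisher's exact test). It also ended with each run of sites within 100 kb counted as 1 site (4.01 points, adjusted p = 0.56, Fisher's exact test), a count added after the data were seen. Chromosome 8 was the 1 of 19 chromosomes (5.26%) past the threshold. Chromosome 15 had 12 sites without REST (2.48%) and 16 at REST (7.24%), which missed it (adjusted p = 0.054, Fisher's exact test) but passed with a window of 200 bp. Chromosome 11 had 44 of the sites without REST and chromosome 7 had 38. Chromosomes X and Y held none: every SIN3A peak listed on X lay inside the stretch left out, and Y had none.

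The share on chromosome 8 was not particular to shared sites. SIN3A-only sites had 88 of 568 there (15.5%, 12.6 to 18.7%; adjusted p = 0.92, Fisher's exact test), and in that comparison 0 of 19 chromosomes (0%) passed the threshold and 0 had an unadjusted p below 0.05. Chromosome 8 held 14.8% of all SIN3A peaks and 8.80% of all SIN3B peaks outside the stretch. Among SIN3A peaks without REST, SIN3B was present at 49.4% (41.8 to 57.1%) on chromosome 8, within the range of 35.7 to 54.5% over the 19 autosomes.

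**Figure D5:**
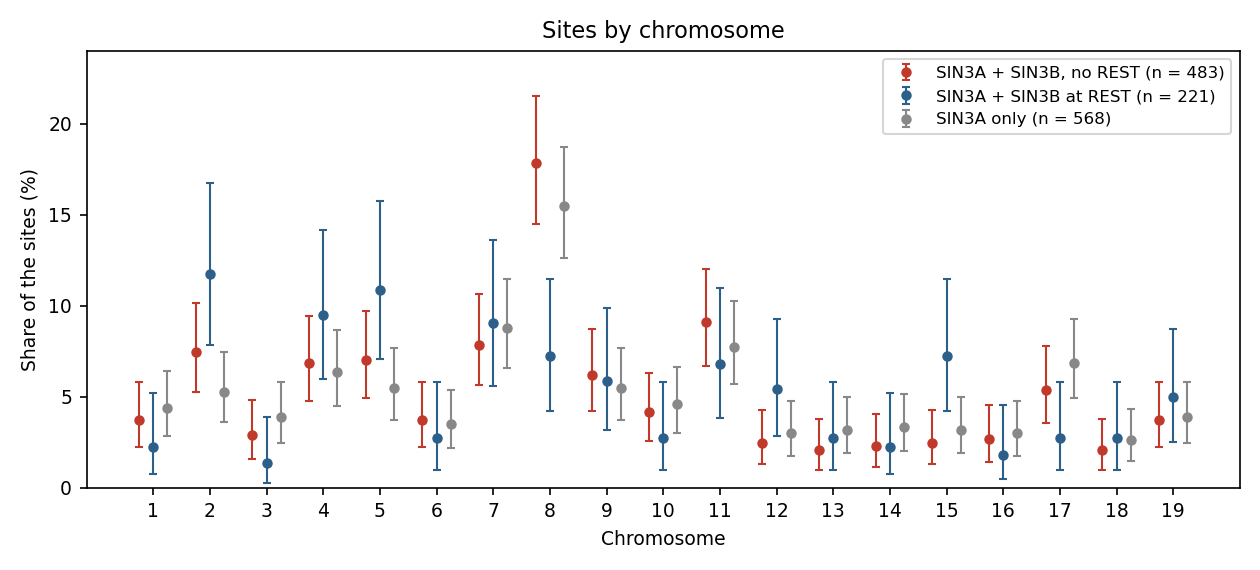
Share of each class of sites (y axis, percent, exact 95% intervals) on each autosome (x axis) for SIN3 sites without REST (red), SIN3 sites at REST (blue) and SIN3A-only sites (grey). On chromosome 8 the shares are 17.8% without REST, 7.24% at REST and 15.5% for SIN3A-only sites; the difference from sites at REST was 4.01 percentage points with 1 site per run within 100 kb, past no threshold.

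The sites on chromosome 8 were crowded. Between 70 and 110 Mb lay 71 of the 86 (82.6%, 72.9 to 89.9%), against 9 of the 16 sites at REST, 74 of the 88 SIN3A-only sites (84.1%), 67.6% of the SIN3B peaks and 41.5% of the REST peaks of that chromosome. Another SIN3 site without REST lay within 100 kb of 58 of the 86 (67.4%, 56.5 to 77.2%), against 65 of 397 on the other chromosomes (16.4%, 12.9 to 20.4%). All 5 runs of 4 or more sites with gaps of up to 100 kb were on chromosome 8. The longest held 9 sites at chr8:108385991-108900591 and the next 8 at chr8:73451791-73721971. When each run within 100 kb was counted as 1 site, chromosome 8 had 44 of 406. A chromosome dense in sites has closer neighbours for that reason alone. Crowding within 100 kb was not particular to shared sites. Over the genome, 25.5% of the 483 sites without REST had another of their class that close, against 26.6% of the 568 SIN3A-only sites. The longest run of SIN3A-only sites held 13.

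In score, the sites on chromosome 8 overlapped with the others. Their median SIN3A percentile was 64.8 (43.6 to 77.5), against 43.6 (43.6 to 59.6) elsewhere, and their median SIN3B percentile was 66.7 in both. Their midpoints were farther apart, with a median of 105 bp on chromosome 8 and 60 bp elsewhere, and a distance of at most 20 bp in 12.8% and 24.2% of pairs. RCOR3 was at 4 of 86 sites there (4.65%, 1.28 to 11.5%), against 33 of 397 elsewhere (8.31%, 5.79 to 11.5%).

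Over the genome, most SIN3 sites without REST stood alone at short range. Another lay within 10 kb of 38 of 483 (7.87%, 5.63 to 10.6%), against 6 of 221 at REST (2.71%, 1.0 to 5.82%) and 49 of 568 SIN3A-only sites (8.63%, 6.45 to 11.2%). Of the 38, 17 were on chromosome 8. The share without REST was 4.03% with SIN3A peaks within 1000 bp merged and 5.29% with chromosome 8 left out. The median distance to the nearest site of the same class was 387330 bp without REST and 1046930 bp at REST. A class with more sites has closer neighbours for that reason alone, so neither measure compares classes of unequal size. The 483 sites formed 445 single sites, 16 pairs and 2 runs of 3. The runs of 3 lay at chr8:87868771-87880951 and chr4:118913211-118920831. In the first, SIN3A scores were 20.4, 8.74 and 11.66 and SIN3B scores 13.26, 16.58 and 24.87, so the peak that led in SIN3A was the weakest in SIN3B. In the second, SIN3A scores were 12.39, 10.2 and 11.66 and SIN3B scores 85.38, 11.61 and 25.7, and the same peak led in both. The pair of sites named next, as the one with the highest mean percentile, was chr8:73530271-73539471, with SIN3A scores of 13.84 and 16.03 and SIN3B scores of 57.2 and 30.67.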

How the data were processed

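ChIP-seq libraries of REST, RCOR1, RCOR2, RCOR3, SIN3A and SIN3B, 1 each, were analysed from the authors' deposited peak lists. Per the labels' protocols, libraries had 15 PCR cycles and fragments of about 250 bp and were read on an Illumina Genome Analyzer. Each list holds chromosome, start, end and the authors' score of each peak, whose meaning is not stated; build mm8 is taken from the lists' names. For aligner, caller, control, threshold and depth: not given in the sources used here. Positions are printed as deposited, and no mm8 genome or gene annotation was used here.

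Scores were ranked within a list, with ties averaged for percentiles. A SIN3A peak was paired with the nearest midpoint of each other list, with presence within 399 bp. Shares have exact Clopper-Pearson intervals, and medians have exact binomial order-statistic intervals. Shares of sites with an RCOR peak, and of sites per chromosome, were compared by two-sided Fisher's exact tests with Benjamini-Hochberg adjustment in each family and a threshold of 0.05. Python 3.11.15, NumPy 2.4.6, SciPy 1.17.1 and pandas 2.3.3 were used, and the pairing and tests were checked on simulated data. The members, lists and tests were chosen with earlier results of these data known. Named regions follow a written rule. It takes the 10 sites of highest and 3 of lowest mean percentile and the 3 with the largest percentile difference each way. It also takes the 3 longest runs within 10 kb (ties by mean percentile) and sites with RCOR2 and RCOR3. The last are the 3 highest sites at REST and those beside the 399 bp limit. Alternatives were other windows, overlap of deposited intervals, peaks scoring at or above the median of their list, and 5000 bp from REST. Others were merged peaks, mutual nearest peaks, chromosome X stretch kept, and chromosome 8 left out. The overlap setting applied to every protein paired with SIN3A, REST included.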

Additional observations from a re-analysis of the deposited data

How the results depend on the processing

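The share of SIN3A peaks with SIN3B and without REST, 37.4% as reported, was 33.6% with a window of 200 bp, 40.8% with 1000 bp and 24.1% with intervals as deposited. It was 29.9% with peaks scoring at or above the median of their list, which kept 857 of the 1292 SIN3A peaks because many scores are tied. Under the other alternatives it lay between 36.1 and 37.4%. The differences in RCOR1, RCOR2 and RCOR3 between SIN3 sites without and at REST kept their direction and stayed past the threshold in Fisher's exact test under every alternative window, list and distance run, and with chromosome 8 left out. The difference for RCOR3 ran from -85.6 to -70.0 percentage points over these. Within SIN3B percentile bands it ran from -90.5 to -21.0 points and missed the threshold in the band from 25 to 50 alone (-21.0 points, adjusted p = 0.063, Fisher's exact test). The number of chromosomes past the threshold against sites at REST was 2 with a window of 200 bp and with merged SIN3A peaks (8 and 15), 3 with the chromosome X stretch kept in (8, 15 and X), and 0 with intervals as deposited or with 1 site per run within 100 kb. The cause of these shifts was not tested. With intervals as deposited, which by construction keeps only overlapping pairs, the median midpoint distance was 30 bp without REST and 20 bp at REST. That setting also counts sites with a nearby but not overlapping REST peak as without REST. The share of sites with another within 10 kb, 7.87% as reported, was 4.03% with merged peaks and 5.29% without chromosome 8. It was 5.47% with peaks at or above the median score and 5.53% with 200 bp. The peak lists give no depth, so weak binding below the authors' threshold cannot be seen. No paired analysis was possible because each protein has 1 library and the labels give no replicate numbers.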
